A study of Mus musculus with 57 samples.

Results

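The genes described here are 42 cell-cycle and DNA replication genes, measured in CD11b-positive cells that the labels call microglia, the resident macrophages of the brain. They were chosen by symbol from a fixed list, and all 42 were present among the 50565 genes of one count table and the 53278 genes of the other. The first table holds the sex experiment, with adult male and female littermates that were wild type (WT) or P2RY12 knockout (KO), with 4 WT and 5 KO males and with 4 WT and 5 KO females. P2RY12 is the ADP receptor through which microglia sense nucleotides from damaged cells. The second table holds the LPS experiment, in which WT and P2RY12 deficient littermates carry the treatment label ns or LPS, the bacterial cell wall component, given into the peritoneum at 1 mg/kg. Its labels give 8 WT ns, 9 WT LPS, 8 KO ns and 8 KO LPS libraries and neither sex nor the time between injection and collection. The meaning of ns is not given in the sources used here. Nothing in the labels describes the knockout allele, and they do not say whether libraries came from separate animals throughout, so p-values measure the spread between these samples.

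A cell that divides first licenses its replication origins in G1, when Cdc6 and Cdt1 load the MCM2-7 helicase, and then fires them in S phase under cyclin E and CDK activity. E2F transcription factors drive the genes of this first wave, while a later wave supplies the cyclins, kinases and spindle proteins of G2 and mitosis. The DREAM complex represses these later genes in resting cells, and the MuvB core with MYBL2 and FOXM1 activates them in cycling cells. Adult microglia turn over slowly in the healthy brain and are known to divide after inflammatory challenge, whereas dividing bone marrow myeloid progenitors carry the same machinery at high level. In RNA from pooled cells, fewer cells of a type and less RNA per cell cannot be told apart.

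Values are CPM, a gene's count divided by the library's total in M (mega) counts, with totals scaled by the trimmed mean of M-values. Libraries held 58.54 to 318.5 M counts in the sex experiment (median 92.04) and 15.91 to 168.4 M in the LPS experiment (median 24.68). All 42 members passed the filter on low counts in both experiments. In the sex experiment P2ry12 lay between 3007 and 5928 CPM in WT and between 309.3 and 526.4 CPM in KO animals. In the LPS experiment 4 of the WT libraries went against their treatment label, all with the number 2 in their library name. P2ry12 was 490 and 903.1 CPM in WT ns 1 and WT ns 5, against 3536 to 5476 CPM in the other WT ns libraries, and Saa3, an acute-phase gene, was 1814 and 2426 CPM there, against at most 64.7 CPM. WT LPS 1 and WT LPS 6 had 4505 and 11280 CPM of P2ry12 and 1.607 and 2.979 CPM of Saa3, against 405 to 1020 CPM and at least 1417 CPM in the other WT LPS libraries. These 4 libraries are therefore shown apart as WT ns number 2 and WT LPS number 2 and enter no comparison unless the labelled groups are named. WT LPS 8 and WT LPS 9 differed by little more than sampling noise (chi-square over its degrees of freedom was 1.86, where no other pair of a group gave less than 8.32) and were summed, which leaves 6 WT ns, 6 WT LPS, 8 KO ns and 8 KO LPS samples. Ccr1l1 was at 1.21 CPM in the library labelled WT LPS 5, a level seen in KO libraries, while P2ry12 was at 541.4 CPM. Microglia markers, a list of 10 that includes P2ry12, summed to at least 17160 CPM in every library. In the sex experiment 9 of the 10 were tested.

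After LPS, transcripts of the replication machinery rose in KO cells, without a called rise of a mitotic member. Of the 42 members, 14 were called higher and 1 lower in KO LPS than in KO ns (edgeR quasi-likelihood test, Benjamini-Hochberg adjusted p under 0.05 over 17954 genes), against a background of 11.9% of all genes called higher, 14.2% called lower and 26.2% called in either direction. The 16 replication members, those of licensing, the fork and nucleotide supply, held 12 of the 14 calls and had a median log2 change of 1.29, and the 16 mitotic members held none of them and had a median of 0.42. Over all genes the median was -0.03. DESeq2 called 15 higher and 1 lower, against 29.7% of all genes. The median over all 42 members was 0.66, and 35 of them had higher values after LPS. That median was 0.18 in library set 1 alone, 1.31 in set 2 alone and 0.44 without KO LPS 5.

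Markers of other cells and of microglia themselves moved in the same comparison. Microglia markers were lower in KO LPS than in KO ns for 10 of 10 genes, 6 of them called, with sums of 34130 to 49530 CPM in KO ns and 21290 to 27430 CPM in KO LPS. B lineage markers were lower for 5 of 5 genes tested, 3 called (sums of 331.1 to 536.6 and 123.9 to 224.5 CPM), T and NK markers for 6 of 6, 3 called (17.37 to 187.6 and 2.621 to 55.57 CPM), and border macrophage markers for 5 of 5, 2 called (172.1 to 545.3 and 86.14 to 258.5 CPM). Oligodendrocyte precursor markers went the other way, higher for 2 of 2 genes tested, 1 called (sums of 0.2297 to 1.429 and 0.696 to 5.148 CPM). Of 4 astrocyte markers 1 was called higher and 0 lower, and of 6 monocyte markers 1 was called higher and 1 lower. Oligodendrocyte markers were lower for 4 of 4 genes, 1 called. Dendritic markers were lower for 3 of 5, 2 called, and endothelial markers for 3 of 5, 1 called, with 0 called higher in either list. The part of any of these markers in the rise of the replication members was not tested.

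All 8 licensing genes rose in KO after LPS. Mcm2, a subunit of the helicase ring, ranged from 5.743 to 18.23 CPM in KO ns (median 9.608) and from 18.41 to 83.03 CPM in KO LPS (median 30.11). The groups did not overlap, and the log2 change was 1.91 ± 0.35 (SE, n = 8 and 8, edgeR adjusted p = 0.000136). Mcm6 went from 17.09 to 30.38 CPM (median 20.35) to 38.45 to 219.9 CPM (median 45.94), a log2 change of 1.77 ± 0.33 (adjusted p = 0.000133). The highest Mcm6 value belonged to KO LPS 5, the library with 5.62% mitochondrial counts, and without it the change was 1.36 (adjusted p = 0.000249). Mcm4 likewise separated the groups, at 13.42 to 25.45 CPM in KO ns (median 17.72) and 27.19 to 147.4 CPM in KO LPS (median 33.82), with a log2 change of 1.47 ± 0.30 (adjusted p = 0.000482). Mcm5, at 8.682 to 25.26 CPM (median 12.45) in KO ns and 20.02 to 90.19 CPM (median 35.83) in KO LPS, overlapped only through KO ns 1 at 25.26 CPM and KO LPS 7 at 20.02 CPM. Its log2 change was 1.86 ± 0.37 (adjusted p = 0.000339). The remaining licensing genes rose by 2.20 ± 0.66 for Cdc6 (adjusted p = 0.0124), 1.43 ± 0.36 for Cdt1 (adjusted p = 0.00316), 0.90 ± 0.21 for Mcm7 (adjusted p = 0.0021) and 0.62 ± 0.21 for Mcm3 (adjusted p = 0.0266) on the log2 scale. The Mcm3 call was lost without KO LPS 3, 5 or 6 or KO ns 6 (log2 change 0.50 to 0.56), while its direction held.

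Among fork genes Gins2, a subunit of the GINS part of the active helicase, rose by 1.44 ± 0.31 on the log2 scale (edgeR adjusted p = 0.00062). It ranged from 1.526 to 3.996 CPM in KO ns (median 2.068) and from 3.395 to 18.38 CPM in KO LPS (median 4.073). Cdc45, its helicase partner, rose by 1.15 ± 0.42 (adjusted p = 0.0434), and Uhrf1, which guides maintenance DNA methylation at the fork, by 2.22 ± 0.56 (adjusted p = 0.00357). Cdc45 lost its call without any 1 of 8 libraries, most with KO LPS 5 left out (0.68, adjusted p = 0.179). Pcna, the sliding clamp, did not pass the test in KO (0.49 ± 0.33, adjusted p = 0.306). Its values were 44.86 to 73.91 CPM in 7 KO ns libraries and 199.8 CPM in KO ns 6, and 61.92 to 98.7 CPM in 7 KO LPS libraries and 280.8 CPM in KO LPS 5. The pair of libraries with the highest Pcna were those with the highest mitochondrial share in their groups, 8.55% and 5.62%, and the part of this in the result was not tested. In nucleotide supply, Rrm1, the large subunit of ribonucleotide reductase, rose by 0.74 ± 0.26 (adjusted p = 0.0342). That call was lost without KO LPS 5 (0.38, adjusted p = 0.174), without KO LPS 3 (0.71, adjusted p = 0.0578) or without KO ns 2, 3, 7 or 8. Its partner Rrm2 went from 0.5178 to 13.23 CPM (median 1.327) to 1.48 to 10.41 CPM (median 6.22), with overlapping groups and a log2 difference of 0.95 ± 0.70 (adjusted p = 0.357). Tk1 and Tyms, which make thymidine nucleotides, differed by 0.80 and 0.12 on the log2 scale without passing the test.

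Ccne1 and E2f1, which act at the G1/S switch, also rose in KO. Ccne1, which encodes cyclin E1, ranged from 0.07137 to 1.125 CPM in KO ns (median 0.313) and from 1.572 to 3.747 CPM in KO LPS (median 2.07). No KO LPS library fell as low as any KO ns library, and the log2 change of 2.41 ± 0.45 (edgeR adjusted p = 0.000172) was the largest among the called members. E2f1, the activator of the first wave, went from 1.182 to 5.742 CPM (median 2.79) to 4.301 to 23.16 CPM (median 8.714), a log2 change of 1.97 ± 0.38 (adjusted p = 0.000243). Mcm2, Mcm4, Mcm6 and Ccne1 were the 4 members with all KO LPS values above all KO ns values, which 3.45% of all genes also showed. Ccne2, Ccna2, Ccnb2 and the later transcription factors E2f8, Foxm1 and Mybl2 differed by -0.13 to 0.39 on the log2 scale and did not pass the test. Ccnb1, the mitotic cyclin, spanned 0.612 to 5.198 CPM in KO ns (median 0.8833) and 0.4625 to 4.69 CPM in KO LPS (median 2.655). Cdk1, the mitotic kinase it activates, spanned 1.998 to 8.457 CPM (median 3.436) and 1.757 to 17.69 CPM (median 4.561). For both the groups overlapped widely, with log2 differences of 0.29 ± 0.61 and 0.41 ± 0.47 (adjusted p = 0.783 and 0.586).

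**Figure D1:**
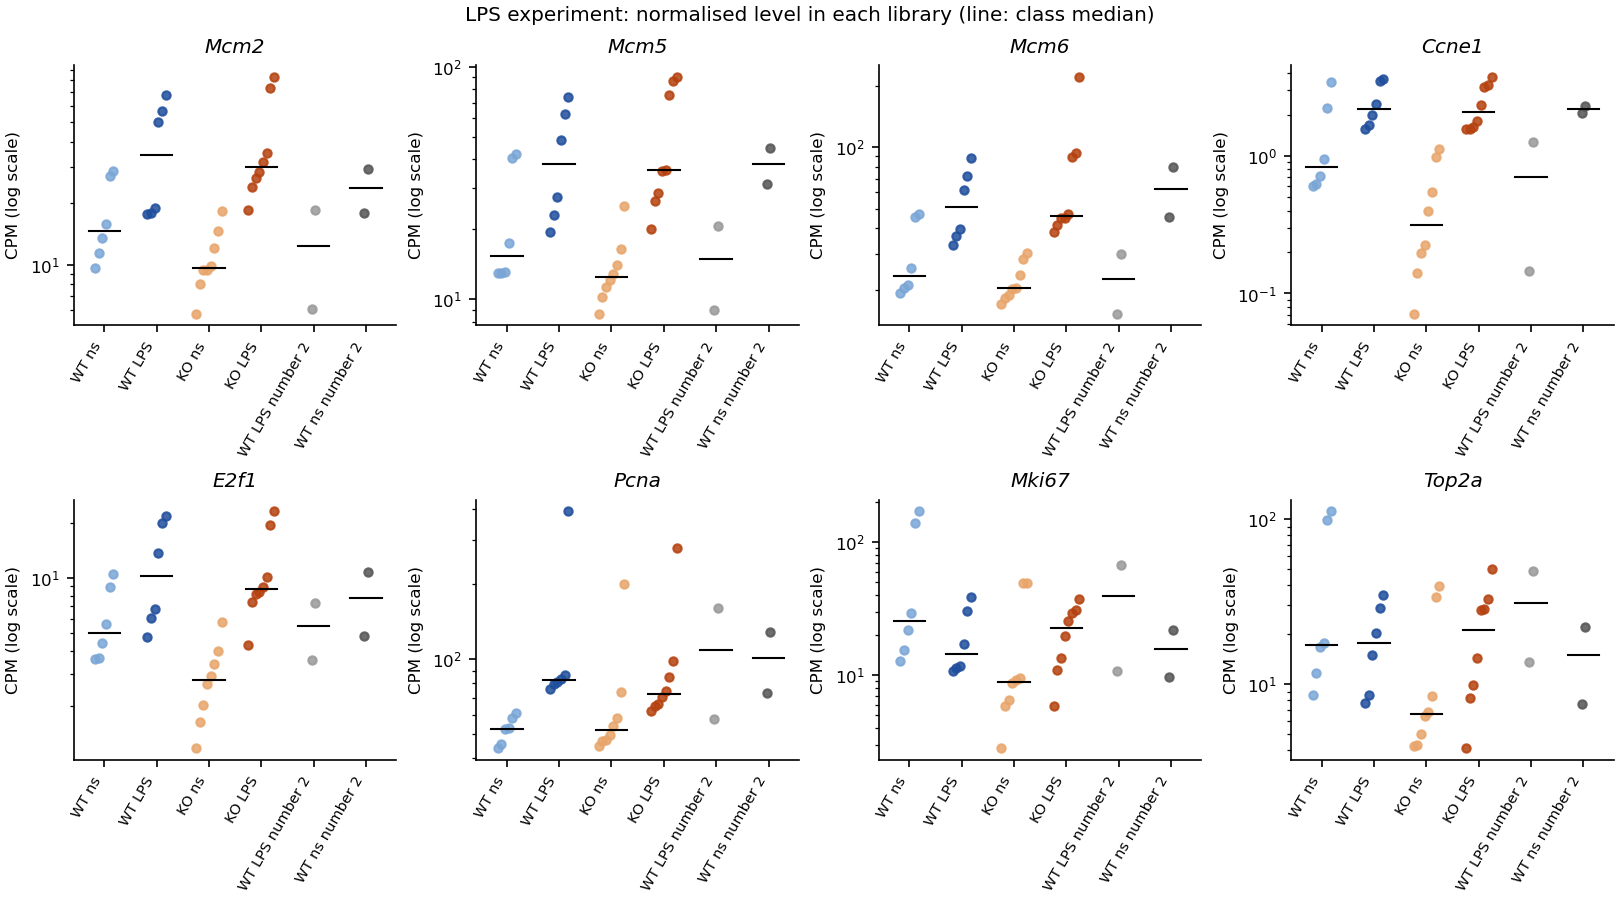
CPM (log axis) of 8 members in each library of the LPS experiment, by genotype, treatment label and library number, with a line at the median of each class. Mcm2, Mcm6 and Ccne1 in KO LPS lie wholly above KO ns, and the WT ns libraries of number 2 lie within the WT LPS range for Mcm5.

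No mitotic member was called higher in KO with all libraries. Mki67, the chromosome surface protein used as a marker of dividing cells, ranged from 2.855 to 49.58 CPM in KO ns (median 8.968) and from 5.919 to 37.61 CPM in KO LPS (median 22.56). The ranges overlapped, with a log2 difference of 0.45 ± 0.59 (edgeR adjusted p = 0.64). Top2a, the topoisomerase that untangles sister chromosomes, ranged from 4.211 to 39.42 CPM (median 6.584) and from 4.116 to 49.95 CPM (median 21.24), a difference of 0.80 ± 0.62 (adjusted p = 0.387). For both genes the 2 highest KO ns libraries were KO ns 1 and KO ns 4. These also held the most Mpo, a granule enzyme of neutrophil progenitors, at 223.9 and 114.7 CPM, against a KO ns median of 5.635 CPM and a KO LPS range of 0.2866 to 25.47 CPM. Cenpf, a kinetochore protein, was the 1 member called lower, going from 3.14 to 8.341 CPM in KO ns (median 4.666) to 0.6937 to 3.685 CPM in KO LPS (median 1.966), a log2 change of -1.24 ± 0.37 (adjusted p = 0.0133). Aurka, a spindle pole kinase, lay just outside the threshold (0.96 ± 0.37, adjusted p = 0.0524).

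Neutrophil progenitor markers (Mpo, Elane, Prtn3, Ctsg, Ms4a3, Camp, Ngp and Ltf) were lower after LPS in KO for 8 of 8 genes, none of them called, and summed to 100.9 to 3562 CPM in KO ns and 155.7 to 1656 CPM in KO LPS. None of these markers was at 0 in any KO library. Ns libraries over 100 CPM of Mpo were left out as an alternative chosen after the values were seen, KO ns 1 and KO ns 4 in KO and WT ns 3 and WT ns 8 in WT. KO LPS against the remaining ns libraries then gave 25 members higher and 1 lower, and 14 of the 15 members called with all libraries were among them, against a background of 10.2% of all genes called higher. Of the 16 replication members 12 were higher, and of the 16 mitotic members 11 were higher and 1 lower. The median log2 change over all 42 members was 1.29 in this fit, against 0.66 with all libraries. Mki67 then rose by 1.56 ± 0.45 (edgeR adjusted p = 0.0125), Top2a by 1.94 ± 0.49 (adjusted p = 0.00478), Aurka by 1.50 ± 0.24 (adjusted p = 4.77e-05), Tpx2 by 1.87 ± 0.34 (adjusted p = 0.000191) and Rrm2 by 2.40 ± 0.55 (adjusted p = 0.00238) on the log2 scale, and Cenpf stayed lower at -0.95 ± 0.33 (adjusted p = 0.0406). Whether mitotic members were called higher in KO after LPS thus turned on 2 of the 8 KO ns libraries. They were left out together with 2 WT ns libraries that share the estimate of the spread. Replication members held 12 higher calls in both fits. The Mpo level ranks libraries by a gene that moves with the mitotic members, so leaving out its highest libraries also removes the highest mitotic values of KO ns. KO ns 1 held the highest KO ns value of 33 of the 42 members, among them 11 of 16 replication and 13 of 16 mitotic members. KO ns 4 held that of 4 more. A move of most members toward higher values after LPS was thus fixed in advance. The counts and p-values without these libraries are no test of a rise.

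**Figure D2:**
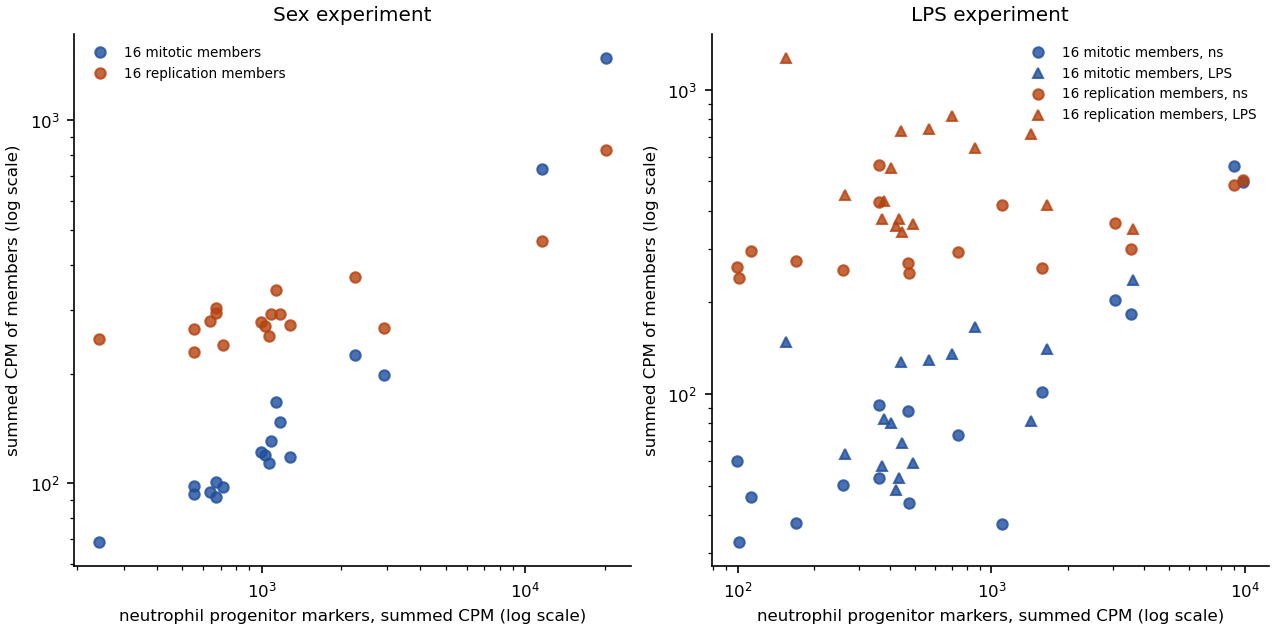
Summed CPM of the 16 mitotic and of the 16 replication members against the summed CPM of 8 neutrophil progenitor markers, 1 point per library in both experiments, log axes. The libraries with the largest progenitor sums, male WT 5, female WT 2, WT ns 3 and WT ns 8, also have the largest mitotic sums of their groups. Replication sums were 357.3 to 1274 CPM in KO LPS and 362.4 to 734.2 CPM in WT LPS. They overlap those of KO ns (241.5 to 417.9 CPM) and WT ns (258.7 to 507.3 CPM). Libraries of number 2 are drawn by their treatment labels and were not counted in these ranges of groups.

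Promoters of licensing and mitotic members are shown because these are the 2 groups on which the KO calls turn; the difference between the groups was not tested. RefSeq windows of build GRCm38.p6, from 250 bases before to 50 after the transcription start, were matched by symbol for 34 of the 42 members, and these coordinates are those of the window table and not of the GRCm39 counts. Both strands were searched for the E2F letters TTTCCCGC, TTTGGCGC, TTTCGCGC and TTTGCCGC, and for the cell-cycle homology region (CHR) letters TTTGAA. An E2F match lay in 6 of 7 licensing members with a window (85.7%), in 7 of 14 replication members (50%), in 0 of 13 mitotic members and in 2.6% of all 27025 genes with a window. A CHR match lay in 9 of 13 mitotic members (69.2%), in 2 of 14 replication members (14.3%) and in 20.2% of all genes. CCAAT, the NF-Y box, was in 10 of 14 replication members (71.4%), 11 of 13 mitotic members (84.6%) and 41.1% of all genes. A match is a description of letters and not of binding. The following 170-base stretches read 5′ to 3′ toward the gene, with E2F matches in capitals for the licensing members Cdc6 at chr11:98907981-98908150 (plus strand), Mcm5 at chr8:75109339-75109508 (plus strand), Mcm6 at chr1:128359706-128359875 (minus strand) and Mcm7 at chr5:138171884-138172053 (minus strand). In Mcm5 and Mcm6 a pair of matches on opposite strands overlap.
Cdc6: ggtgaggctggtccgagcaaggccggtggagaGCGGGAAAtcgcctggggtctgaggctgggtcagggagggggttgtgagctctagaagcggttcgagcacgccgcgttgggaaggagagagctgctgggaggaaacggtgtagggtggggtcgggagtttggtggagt
Mcm5: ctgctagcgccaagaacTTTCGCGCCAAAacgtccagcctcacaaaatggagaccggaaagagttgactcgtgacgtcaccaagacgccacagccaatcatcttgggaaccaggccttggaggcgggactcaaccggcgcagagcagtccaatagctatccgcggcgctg
Mcm6: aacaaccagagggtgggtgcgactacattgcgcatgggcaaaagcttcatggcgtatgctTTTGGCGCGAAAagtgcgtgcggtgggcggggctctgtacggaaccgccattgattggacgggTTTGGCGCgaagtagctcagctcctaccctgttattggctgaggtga
Mcm7: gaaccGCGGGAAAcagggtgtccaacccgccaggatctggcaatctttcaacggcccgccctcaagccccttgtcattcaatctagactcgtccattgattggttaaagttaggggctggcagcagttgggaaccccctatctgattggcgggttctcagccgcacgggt
In the mitotic members Cdc20 at chr4:118437344-118437513 (minus strand), Ube2c at chr2:164769759-164769928 (plus strand), Top2a at chr11:99024190-99024359 (minus strand) and Mki67 at chr7:135716380-135716549 (minus strand), capitals mark TTTGAA or its reverse complement.
Cdc20: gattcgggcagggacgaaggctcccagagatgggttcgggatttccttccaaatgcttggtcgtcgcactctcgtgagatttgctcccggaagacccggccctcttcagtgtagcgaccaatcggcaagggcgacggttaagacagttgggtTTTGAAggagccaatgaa
Ube2c: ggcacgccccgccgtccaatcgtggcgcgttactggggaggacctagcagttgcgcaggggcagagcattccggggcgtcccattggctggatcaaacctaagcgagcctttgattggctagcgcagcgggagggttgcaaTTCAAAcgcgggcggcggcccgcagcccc
Top2a: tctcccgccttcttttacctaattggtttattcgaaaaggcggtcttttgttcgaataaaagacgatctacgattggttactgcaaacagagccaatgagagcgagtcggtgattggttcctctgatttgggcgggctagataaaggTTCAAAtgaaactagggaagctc
Mki67: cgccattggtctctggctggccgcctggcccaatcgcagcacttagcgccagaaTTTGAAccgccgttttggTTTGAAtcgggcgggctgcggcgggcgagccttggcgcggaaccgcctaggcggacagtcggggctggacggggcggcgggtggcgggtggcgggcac
The first 4 genes belong to the group of which all members rose in KO after LPS, and the last 4 to the group of which no member was called higher with all libraries. These 8 promoters were picked to hold a match of the kind shown. Of the licensing members with separate groups in KO, Mcm2 held a CHR match and no E2F match, and Mcm4 had no window.

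In WT, 3 members were called higher and 2 lower after LPS, against 13.5% of all genes called higher, 14.6% called lower and 28.1% called in either direction, so the members' share lay below the background. The 3 higher were replication genes and the 2 lower were mitotic genes. Pcna ranged from 44.07 to 60.83 CPM in WT ns (median 52.62) and from 76.04 to 392.9 CPM in WT LPS (median 82.26), a log2 change of 1.18 ± 0.39 (edgeR, n = 6 and 6, adjusted p = 0.0222). All WT LPS values lay above all WT ns values, which 9.47% of all genes also showed. The top value was that of WT LPS 7, a library with 6.74% mitochondrial counts, and without it the log2 change was 0.69 (adjusted p = 0.153). Without the 4 libraries over 5% mitochondrial counts in all groups it was 0.68 (adjusted p = 0.00136). Mcm2 rose by 1.11 ± 0.40 (adjusted p = 0.0374), from 9.643 to 28.81 CPM (median 14.66) to 17.67 to 67.91 CPM (median 34.38), and Gins2 by 0.97 ± 0.35 (adjusted p = 0.0371), from 2.071 to 3.732 CPM (median 2.602) to 3.078 to 7.68 CPM (median 5.64). The calls of Pcna, Mcm2 and Gins2 were each lost when 1 of several libraries was left out (Pcna without WT ns 6, 7 or 8 or WT LPS 7, Mcm2 without WT ns 2, 6 or 7 or WT LPS 2, 4 or 5, Gins2 without WT ns 2, 4, 6, 7 or 8 or WT LPS 2, 4, 5 or 7). Their log2 changes then ranged from 0.69 to 1.12 for Pcna, 0.73 to 1.06 for Mcm2 and 0.83 to 0.99 for Gins2. With WT ns 4 left out Mcm2 also lost its call (1.02, adjusted p = 0.077).

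Cenpf fell by 2.37 on the log2 scale in WT after LPS (SE 0.45, edgeR adjusted p = 0.000187). Its 6 WT ns values, 3.8 to 23.43 CPM (median 6.025), all lay above the 6 WT LPS values, 1.05 to 2.8 CPM (median 1.795), as did 13.1% of all genes. Nusap1, which bundles spindle microtubules, fell by 1.51 on the log2 scale (SE 0.52, adjusted p = 0.0302), from 3.211 to 26.43 CPM (median 4.632) to 1.997 to 7.51 CPM (median 3.042). That call was lost without WT ns 8 (adjusted p = 0.164), WT ns 3 (-1.04, adjusted p = 0.144) or WT LPS 2, 3 or 8+9. Mki67 ranged from 12.81 to 169.8 CPM in WT ns (median 25.44) and from 10.69 to 38.78 CPM in WT LPS (median 14.55), a difference of -1.77 ± 0.69 (adjusted p = 0.0542). WT ns 3 and WT ns 8 held 137.7 and 169.8 CPM and the other 4 WT ns libraries 12.81 to 29.11 CPM. Top2a differed by -1.22 ± 0.70 (adjusted p = 0.205), with 8.542 to 111.3 CPM (median 17.36) and 7.64 to 34.75 CPM (median 17.7).

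The median over all 42 members was -0.48 in WT, and -0.01 without WT ns 3. Over all 16 mitotic members the WT log2 difference had a median of -1.15 and was negative in each, and over the 16 replication members it had a median of 0.58 and was positive in 15. Mcm5 was 12.92 to 42.05 CPM in WT ns (median 15.28) and 19.5 to 74.24 CPM in WT LPS (median 38.02), a difference of 0.88 ± 0.42 (edgeR adjusted p = 0.119). E2f1, at 3.626 to 10.52 CPM (median 5.002) and 4.794 to 21.92 CPM (median 10.22), differed by 0.98 ± 0.43 (adjusted p = 0.0879). Ccne1, at 0.6072 to 3.471 CPM (median 0.8328) and 1.575 to 3.606 CPM (median 2.19), differed by 0.79 ± 0.49 (adjusted p = 0.239). In all 3 the medians were higher after LPS and WT ns 3 and WT ns 8 reached into the WT LPS range. Rrm2 spanned 1.513 to 36.36 CPM (median 4.31) and 2.39 to 10.44 CPM (median 4.304), Cdk1 3.025 to 19.22 CPM (median 4.429) and 3.005 to 14.45 CPM (median 5.212), and Ccnb1 1.112 to 11.54 CPM (median 1.69) and 1.322 to 10.74 CPM (median 2.342). None of these passed the test.

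WT ns 3 and WT ns 8 held the highest WT ns value of all 42 members, 24 in the first and 18 in the second, with Mpo at 630 and 519.8 CPM. Their mature neutrophil markers summed to 10890 and 10260 CPM, against 1816 to 3823 CPM in the other WT ns libraries. The 8 progenitor markers were all lower in WT LPS than in WT ns, 4 of them called, and summed to 99.44 to 9832 CPM in WT ns and 369.2 to 1438 CPM in WT LPS. Ctsg was at 0 in 1 of the 6 WT ns libraries. Without the ns libraries over 100 CPM of Mpo, 10 members were called higher and 1 lower in WT, against 10% of all genes called higher. The median over all members then moved from -0.48 to 0.61, and over the mitotic members to 0.35. Leaving out WT ns 3 and WT ns 8 removes the highest WT ns value of all 42 members. A move toward higher values after LPS was thus fixed in advance, and these counts are no test of a rise. Replication members held 7 of the 10 calls, and the others were Ccne1 (1.75 ± 0.45, edgeR adjusted p = 0.00708), E2f1 (1.49, adjusted p = 0.0258) and Aurka. Cenpf remained lower (-1.48, adjusted p = 0.00772), and Nusap1 (-0.02, adjusted p = 0.982) and Pcna (adjusted p = 0.0562) were no longer called.

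The WT calls rested on keeping the number 2 libraries apart. With them in their labelled groups, 0 members were called in WT after LPS by edgeR, as were 0% of all genes, with 3 members at an unadjusted p under 0.05, and the member median was -0.29. DESeq2 with these libraries apart called 5 higher and 7 lower, against 32.5% of all genes. In WT ns number 2, Mcm5 was 31.35 and 44.85 CPM, within the WT LPS range, and in WT LPS number 2 it was 20.74 and 9.011 CPM, the lower of them under every WT ns value. Ccne1 was 2.069 and 2.306 CPM in WT ns number 2 and 1.263 and 0.1453 CPM in WT LPS number 2. Cenpf was 1.304 and 2.342 CPM in WT ns number 2, at the level of WT LPS, and 10.64 and 8.793 CPM in WT LPS number 2, at the level of WT ns. Mki67 was 9.67 and 21.79 CPM in WT ns number 2 and 67.4 and 10.68 CPM in WT LPS number 2, and Mcm2 was 29.5 and 17.85 CPM against 18.6 and 6.031 CPM. E2f1 was 10.84 and 4.826 CPM in WT ns number 2 and 7.348 and 3.561 CPM in WT LPS number 2, without a clear side.

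**Figure D3:**
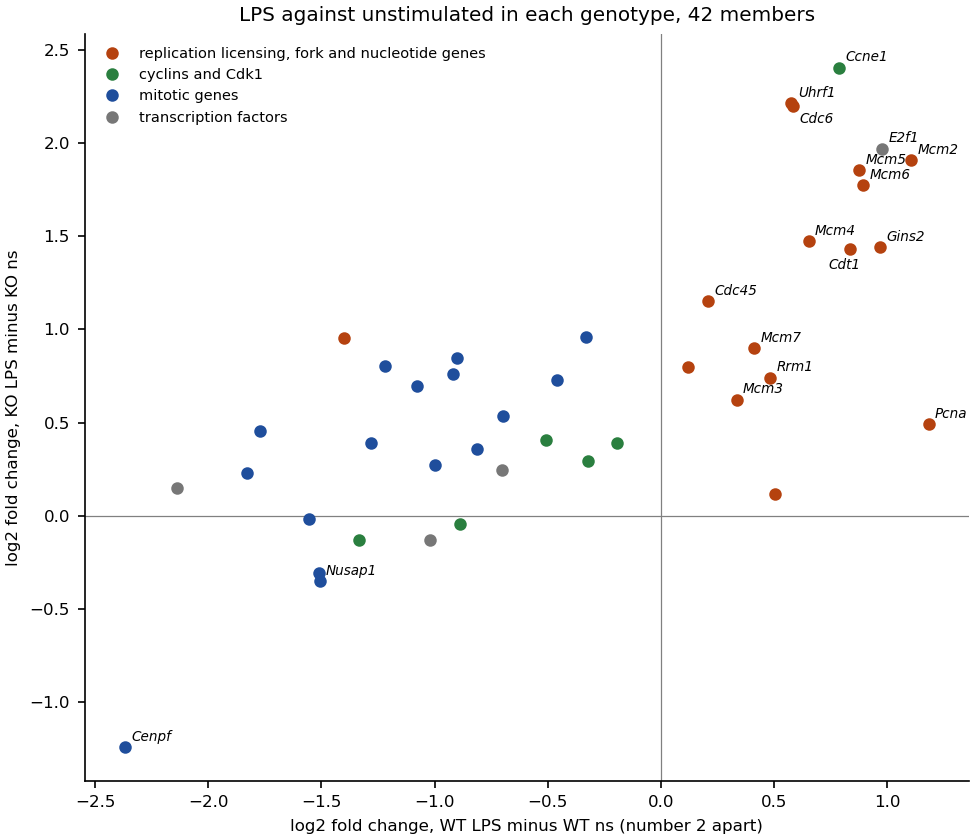
Log2 change after LPS in KO (vertical) against WT (horizontal) for the 42 members, coloured by role. Most members lie above the diagonal, licensing members in the upper right and spindle members to the left, and the 2 axes share no samples.

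The LPS response differed between genotypes for 0 members by the interaction test (edgeR adjusted p at least 0.784, 0% of all genes called), and 11 members had an unadjusted p under 0.05, against 4.96% of all genes. The interaction, the KO change minus the WT change, was positive in 40 of 42 members with a median of 1.14. It was 2.23 ± 0.91 for Mki67 (unadjusted p = 0.0208), 1.62 ± 0.66 for Ccne1 (unadjusted p = 0.0203) and 1.77 ± 0.75 for Cenpe, a kinetochore motor (unadjusted p = 0.0244). Of the 11 members, 9 were mitotic and 1 was a replication gene. DESeq2 also called 0 members, against 0.0167% of all genes, with 13 at an unadjusted p under 0.05. Without WT ns 3 the count at an unadjusted p under 0.05 was 0, and without WT ns 8 it was 1. With all WT libraries as labelled, 0 members (0% of all genes) were called and 12 passed unadjusted. The share of all genes at an unadjusted p under 0.05 is given for no alternative fit of either experiment. A changed count of members at that threshold therefore cannot be told apart from a change over all genes.

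Without LPS, no member was called between KO and WT. By edgeR 0 of 42 passed (0.0891% of all genes did), 24 had an unadjusted p under 0.05 against 9.27% of all genes, and 40 had a negative difference with a median of -1.21. Mitotic members held 15 of the 24, with a median of -1.49, and replication members held 2, with a median of -0.52. Cdc20, the activator of the anaphase-promoting complex, was 0.1427 to 7.72 CPM in KO ns (median 1.336) and 2.546 to 17.05 CPM in WT ns (median 3.883), a difference of -1.80 ± 0.52 (adjusted p = 0.369). Aurka was 1.318 to 5.819 CPM (median 1.623) and 2.091 to 12.32 CPM (median 3.076), a difference of -1.34 ± 0.39 (adjusted p = 0.371), and Ccne1 differed by -1.63 ± 0.47 (adjusted p = 0.371). Mki67 differed by -2.12 ± 0.65 (adjusted p = 0.392). For each of these genes the groups overlapped.

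The median of -1.21 was -0.71 without WT ns 8. The 8 progenitor markers were also lower in KO ns than in WT ns, none called, with a median of -2.20, and their part in the result was not tested. Without WT ns 8 the members with an unadjusted p under 0.05 numbered 5, and without WT ns 3 they numbered 12. Without the 4 ns libraries over 100 CPM of Mpo they numbered 11 and the median was -0.51. DESeq2 called 0 members (0.29% of all genes), with 24 at an unadjusted p under 0.05, and edgeR with all WT libraries as labelled called 0 (0.123% of all genes), with 22. These unadjusted counts also lack the share of all genes in the same fit, so their changes cannot be read as particular to the members.

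After LPS no member passed the test between the genotypes. Between KO LPS and WT LPS 0 members were called by edgeR (0.078% of all genes), 0 had an unadjusted p under 0.05 (6.1% of all genes), 21 were higher and 21 lower, and the median was 0.01. The lowest p-values were those of Mcm4 (0.54 ± 0.33, adjusted p = 0.912), Mcm6 (0.46 ± 0.35, adjusted p = 0.978) and Mcm3 (0.25 ± 0.23, adjusted p = 0.998). Mcm4 was 27.19 to 147.4 CPM in KO LPS (median 33.82) and 21.47 to 57.76 CPM in WT LPS (median 33.35). Mcm6 was 38.45 to 219.9 CPM (median 45.94) and 33.15 to 88.1 CPM (median 50.69), and Mcm3 was 53.51 to 132.6 CPM (median 70.22) and 46.59 to 111.9 CPM (median 69.16). DESeq2 called 0 members (0.228% of all genes), with 0 at an unadjusted p under 0.05. With WT libraries as labelled 0 were called (0.111% of all genes), with 1 unadjusted.

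**Figure D4:**
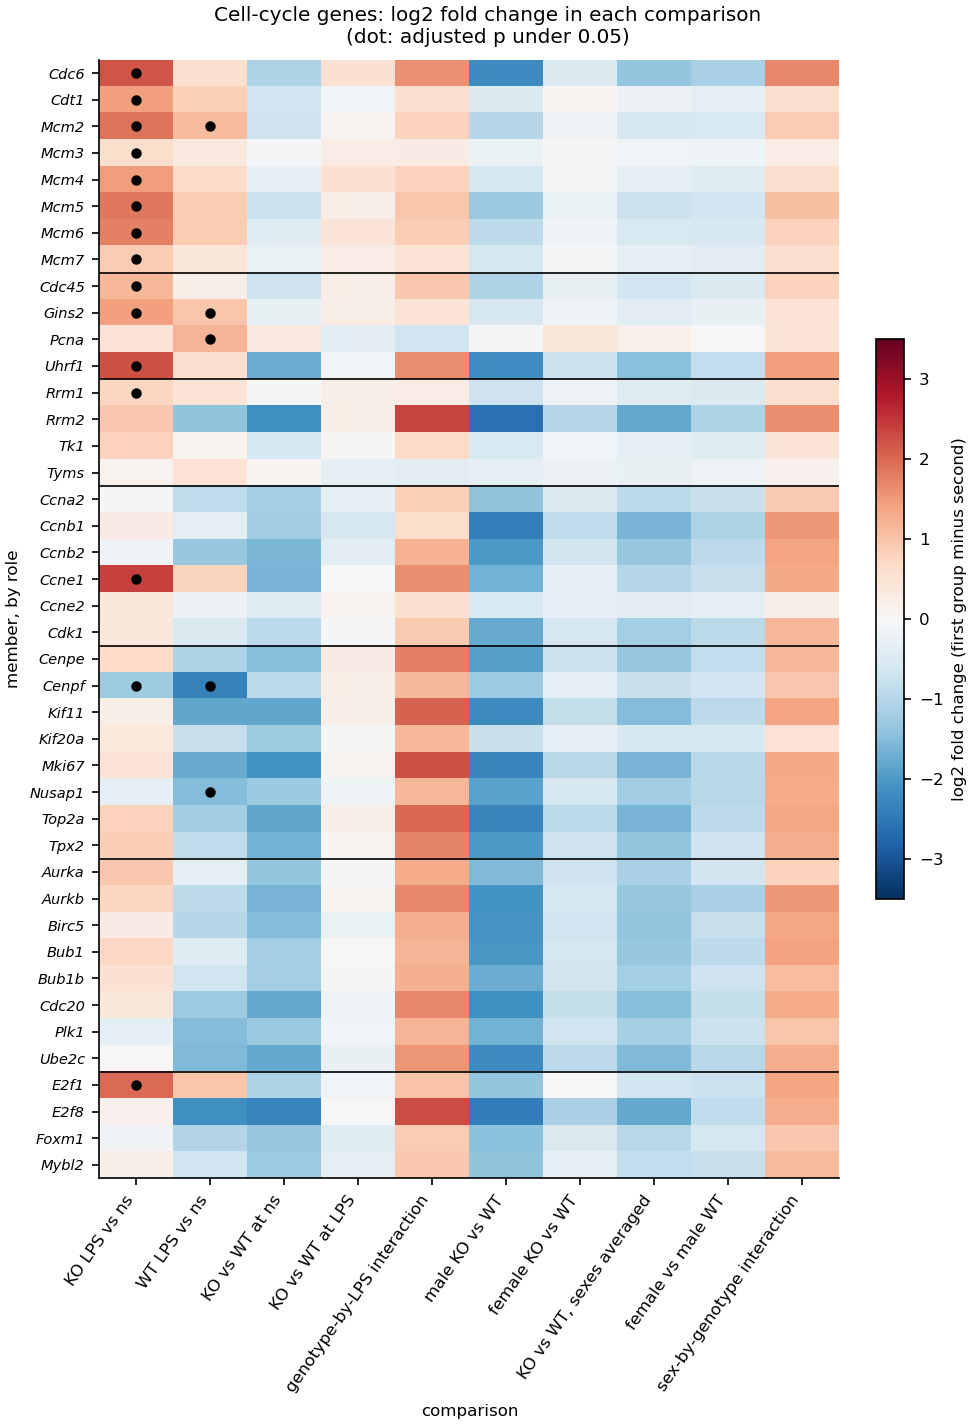
Fitted log2 differences of the 42 members, ordered by role, in the 10 comparisons of both experiments, with a dot where the edgeR adjusted p was under 0.05. The KO LPS column carries 15 dots, which include all 8 licensing genes, the WT LPS column carries 5, and the other columns carry none.

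In the sex experiment no member was called in any comparison, and 1 animal per WT group carried most of the spread. Male KO against male WT gave 0 calls by edgeR (0.00946% of all genes), 33 members with an unadjusted p under 0.05 (6.85% of all genes) and 42 negative differences with a median of -1.60. Mki67 was 584 CPM in male WT 5, 26.26 in male WT 1, 27.65 in male WT 3 and 64.54 CPM in male WT 4, and 44.98, 37.85, 27.09, 32.82 and 36.77 CPM in male KO 1 to 5. All 5 male KO values lay inside the range of the other 3 male WT animals, and the log2 difference was -2.29 ± 0.96 (adjusted p = 0.719). Male WT 5 had the highest value of its group in 42 of 42 members, and without it 0 members had an unadjusted p under 0.05 and the median was -0.13. That animal also held 798.7 CPM of Mpo and a progenitor marker sum of 20180 CPM, against 552.3 to 2913 CPM in the other male WT and 715.4 to 1285 CPM in the male KO animals. The 8 progenitor markers were all lower in male KO, none called. Mature neutrophil markers summed to 31910 CPM in male WT 5, against 2092 to 5923 CPM in the other male WT and 2378 to 3610 CPM in male KO animals. Its monocyte markers summed to 3913 CPM, against 206.2 to 649.7 CPM in the other male WT animals. Its microglia markers summed to 25650 CPM, against 40720 to 42600 CPM in those animals. The part of these markers in the result was not tested.

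Top2a showed the same layout, with 270.5 CPM in male WT 5, 11.97, 11.91 and 31.96 CPM in the other male WT animals and 12.68 to 18.15 CPM in male KO. The lowest p-values in males were those of E2f1, Mcm2 and Cdc20. E2f1 was 11.87, 2.721, 2.122 and 3.991 CPM in male WT 5, 1, 3 and 4 and 1.924, 1.897, 1.959, 2.288 and 2.022 CPM in male KO 1 to 5, a difference of -1.36 ± 0.45 (edgeR adjusted p = 0.719). Mcm2 was 32.42, 9.497, 8.076 and 9.098 CPM in male WT and 7.871, 8.49, 5.482, 7.96 and 6.948 CPM in male KO, a difference of -1.01 ± 0.37. Cdc20 was 28.41, 2.095, 1.882 and 3.916 CPM in male WT and 1.94, 2.157, 1.791, 2.148 and 2.32 CPM in male KO, a difference of -2.14 ± 0.80. In each gene the male KO range met the lower male WT values. Pcna did not share this layout, at 141.7, 89.19, 56.96 and 52.83 CPM in male WT and 99.98, 77.84, 74.49, 70.32 and 88.38 CPM in male KO, a difference of -0.05 ± 0.22 (adjusted p = 0.997). Mcm5, at 59.98, 9.823, 8.486 and 13.16 CPM against 10.06, 9.734, 7.93, 8.75 and 10.44 CPM, followed Mki67. DESeq2 called 0 members in males (0.0757% of all genes), with 28 at an unadjusted p under 0.05.

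Female WT 2 played the same part among females, with the highest value of its group in 42 of 42 members and Mpo at 189.1 CPM. Its mature neutrophil markers summed to 19560 CPM, against 1261 to 2372 CPM in the other female WT animals. Its monocyte markers summed to 2165 CPM, against 132.6 to 312.5 CPM in those animals. Mpo and the members did not rank all animals alike: female KO 1, at 144.4 CPM of Mpo, held the highest value of its group in 0 members and had a mitotic sum of 147.7 CPM, the median of its group. Mki67 was 15.94, 279.2, 37.03 and 26.53 CPM in female WT 1, 2, 3 and 5 and 46.85, 24.77, 30.39, 73.79 and 52.3 CPM in female KO 1 to 5. Between female KO and WT 0 members were called by edgeR (0.164% of all genes) and 0 had an unadjusted p under 0.05 (5.22% of all genes), with 38 of 42 lower in KO and a median of -0.50. That median turned to 0.47 without female WT 2 and to 0.26 without the animals over 100 CPM of Mpo, which are male WT 5, female WT 2, female KO 1 and female KO 4. DESeq2 called 0 (0.672% of all genes), with 0 unadjusted. The lowest p belonged to Pcna, at 82.56, 89.78, 85.21 and 85.31 CPM in female WT and 86.62, 106.6, 119.5, 124.6 and 126.3 CPM in female KO, a difference of 0.39 ± 0.23 (unadjusted p = 0.0993, adjusted p = 1). Only female KO 1 lay within the female WT range. Aurka was 2.22, 14.06, 3.566 and 2.574 CPM in female WT and 3.315, 2.35, 2.701, 4.677 and 3.771 CPM in female KO, and E2f8, a repressor of E2F targets, was 1.753, 33.32, 4.343 and 2.315 CPM and 4.363, 2.362, 3.121, 8.444 and 5.25 CPM. Both differences were negative (-0.73 ± 0.63 and -1.15 ± 0.98) and turned positive without female WT 2 (0.27 and 0.76). Among female KO animals, female KO 4 held the highest value of 37 members.

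**Figure D5:**
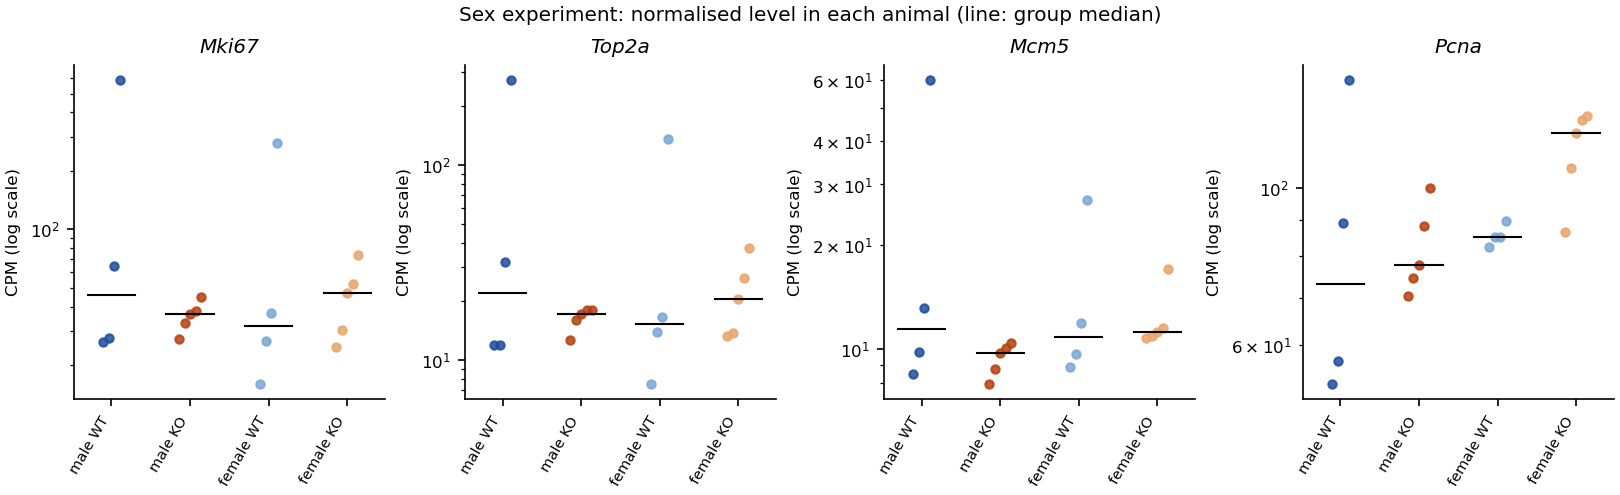
CPM (log axis) of Mki67, Top2a, Mcm5 and Pcna in each animal of the sex experiment, with a line at each group median. Male WT 5 and female WT 2 stand above all other animals in Mki67, Top2a and Mcm5, while Pcna in female KO lies mostly above female WT.

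Averaged over the sexes, 0 members were called by edgeR between KO and WT (0.432% of all genes) and 24 had an unadjusted p under 0.05 (9.02% of all genes), with a median of -1.07. The median was -0.31 without male WT 5, -0.55 without female WT 2 and 0.05 without the animals over 100 CPM of Mpo. DESeq2 called 0 (1.13% of all genes), also with 24 unadjusted. Cdc20 differed by -1.48 ± 0.56 and Aurka and Ccnb1 had the next lowest p-values (adjusted p = 0.488, 0.495 and 0.496). Ccnb1 was 19.52, 0.7891, 1.266 and 2.519 CPM in male WT, 1.632, 1.158, 0.7166, 0.9927 and 1.257 CPM in male KO, 0.5698, 8.686, 0.99 and 1.059 CPM in female WT and 1.439, 1.084, 0.9228, 2.39 and 1.798 CPM in female KO. The values other than those of male WT 5 and female WT 2 all lay between 0.5698 and 2.519 CPM. Without female WT 2 the members with an unadjusted p under 0.05 numbered 0.

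Female WT differed from male WT in 0 members by edgeR (0.0725% of all genes), with 0 at an unadjusted p under 0.05 (7.5% of all genes), and 41 of 42 differences were negative with a median of -0.75, which was 0.62 without male WT 5 and -1.71 without female WT 2. DESeq2 called 0 (0.483% of all genes), with 0 unadjusted. E2f1 (-0.75 ± 0.48, edgeR adjusted p = 0.682), Tk1 (-0.42 ± 0.28) and Rrm1 (-0.50 ± 0.36) had the lowest p-values. Tk1 was 8.906, 15.2, 12.12 and 10.44 CPM in female WT and 30.65, 10.87, 9.804 and 10.8 CPM in male WT, and Rrm1 was 26.51, 56.68, 27.23 and 26.71 CPM and 102, 31.06, 28.09 and 32.98 CPM. All 3 differences turned positive without male WT 5. The genotype effect differed between the sexes in 0 members by edgeR (0% of all genes), with 1 unadjusted (2.77% of all genes), and in 0 by DESeq2 (0% of all genes), with 1 unadjusted. The median interaction was 1.11, and -0.35 without male WT 5. The 1 member was E2f1, whose interaction, the female minus the male difference, was 1.37 ± 0.64 (unadjusted p = 0.049, adjusted p = 0.999). Mcm2 followed at 0.89 ± 0.53 and Mcm3 at 0.26 ± 0.16. Mcm3 was 65.5, 46.01, 41.44 and 41.52 CPM in male WT, 43.69, 46.94, 37.09, 41.72 and 37.89 CPM in male KO, 40.1, 49.22, 45.49 and 40.61 CPM in female WT and 47.07, 42.78, 42.46, 49.16 and 42.75 CPM in female KO, with all 4 groups overlapping.

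Cell-cycle genes outside the 42 were counted in the same way in KO after LPS. Of 35 other S phase genes 23 were called higher and none lower by edgeR, with a median log2 change of 0.95, and of 42 other G2/M genes 5 were higher and 1 lower, with a median of 0.25. The G2/M count of higher genes equals the 11.9% of all genes called higher, and 14.2% of all genes were called lower. The S phase genes with the lowest p were Fen1, the flap endonuclease of lagging-strand synthesis, at 3.886 CPM in KO LPS and 1.672 CPM in KO ns on average (1.21 ± 0.18, adjusted p = 5.16e-06), Ung, the uracil glycosylase, at 5.112 and 0.7045 CPM (2.86 ± 0.45, adjusted p = 1.52e-05), and Chaf1b, a histone chaperone subunit, at 4.508 and 1.038 CPM (2.16 ± 0.35, adjusted p = 2.44e-05). In the G2/M list Kif2c, a microtubule depolymerase (3.14 ± 0.42, adjusted p = 1.21e-06), Tubb4b, a tubulin (1.06 ± 0.19, adjusted p = 9.41e-05), and Cbx5, a heterochromatin protein (1.19 ± 0.23, adjusted p = 0.000253), rose, and Cenpa, the centromeric histone, fell (-0.91 ± 0.29, adjusted p = 0.018). In WT 8 of the 35 S phase genes were higher, with a median of 0.39, and of the 42 G2/M genes 4 were higher and 5 lower, with a median of -0.50, where 13.5% of all genes were called higher and 14.6% lower. The G2/M counts lay below both shares.

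Of 20 inhibitor and quiescence genes 2 were higher and 6 lower in KO after LPS, where 11.9% of all genes were called higher and 14.2% lower. In WT 3 were higher and 10 lower, where 13.5% and 14.6% of all genes were. The count higher in KO lay below its background, and the counts lower lay above theirs. Ccng2, a cyclin of quiescent cells, went from 224.4 to 56.17 CPM on average in KO (-1.99 ± 0.16, edgeR adjusted p = 2.03e-10), Cdkn1c, which encodes p57, from 6.048 to 1.682 CPM (-1.84 ± 0.24, adjusted p = 1.12e-06) and Btg1, an antiproliferative gene, from 170.2 to 104.5 CPM (-0.70 ± 0.13, adjusted p = 8.6e-05). Cdkn1a, which encodes the p53 target p21, rose in both genotypes, by 2.43 ± 0.40 in KO (adjusted p = 2.66e-05) and 1.87 ± 0.45 in WT (adjusted p = 0.00215), and Gadd45b, a stress-response gene, rose in KO by 1.42 ± 0.46 (adjusted p = 0.0205). Of 14 G1 entry genes 3 were higher and 0 lower in KO, against the same 11.9% and 14.2% of all genes, and in WT 3 were higher and 2 lower. The 3 in KO were Skp2, an F-box protein of the ligase that degrades p27 (0.80 ± 0.14, adjusted p = 8.73e-05), Ccnd2 and Myc. Ccnd2, which encodes cyclin D2, rose by 1.21 ± 0.27 in KO (adjusted p = 0.00113) and 1.19 ± 0.31 in WT (adjusted p = 0.0044), and Myc by 1.24 ± 0.36 (adjusted p = 0.0106) and 1.36 ± 0.42 (adjusted p = 0.0149). Ccnd1, which encodes cyclin D1, was at 116.6 CPM in KO LPS and 98.1 CPM in KO ns and did not pass the test in KO (0.27 ± 0.30, adjusted p = 0.568) or WT (-0.08 ± 0.34, adjusted p = 0.892).

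The annotated spans of Mcm7, Cdc45, Gins2, Tk1, Ccne2, Ccna2, Aurka, Cdc20 and Kif20a overlap a neighbour with more counts than the member itself. The counting's strand setting is not given in the sources used here, so these members are uncertain to that extent.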

How the data were processed

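RNA from CD11b-positive cells was sequenced as poly(A) libraries, per the labels' protocols. STAR 2.6.1, featureCounts and Subread, FastQC, DESeq2 and build GRCm39 are named, per the submitters' processing notes. The authors deposited whole-number counts per gene, not normalized, in 1 table per experiment. Of counts up to 20, between 79 and 89.2% were even in the sex table and between 39.7 and 45.6% in the LPS table, so the counts of the 2 tables may not be in the same unit. The sex table gives each of its 50565 genes the length of its whole span, introns included. Of 57 labelled libraries, 6 are repeats with no column and were not analysed here.

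The counts as deposited were fitted across all genes with edgeR 4.0.16 (R 4.3.3, limma 3.58.1), using the two-sided quasi-likelihood F test, TMM scaling, filterByExpr (31709 genes in the sex and 17954 in the LPS experiment) and Benjamini-Hochberg adjustment over all genes tested, with a threshold of 0.05. The biological coefficient of variation was 35.3% and 42.3%. The sex fit had 4 groups, and the LPS fit had 6 classes, with the WT libraries of number 2 apart, plus the library set (names 1 to 4 or 5 to 8). Standard errors are the log2 difference divided by the square root of F. The 42 members and the other lists were chosen with earlier results of these data known.

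Values are given for the 8 members with the lowest p in KO after LPS, the 3 with the lowest p in each other comparison, and Mki67, Top2a, Cdk1, Ccnb1, Mcm2, Mcm5, Pcna, Rrm2, Ccne1 and E2f1, and of other lists for up to 3 called genes per list and direction in KO after LPS and for Cdkn1a, Ccnd1, Ccnd2 and Myc. Cenpf and other members beyond this rule were named after their values were seen. Alternatives were DESeq2 1.42.0, RLE scaling, other filters, other groupings of libraries, a replicate block and leaving out single libraries. Tested on simulated counts for KO LPS against KO ns (17954 genes), the fit called 48% of 100 genes changed 2-fold and 86% of 100 genes changed 4-fold. Only these genes were changed, where 26.2% of all genes were called in the data, so the adjustment was stricter in the simulation. The simulated counts also held no outlying libraries. These percentages are therefore not the sensitivity of the real comparison.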

Additional observations from a re-analysis of the deposited data

Results flagged for a closer look

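A gap test (Dixon) was run on 13 measures, 10 members and 3 sums of members, in each group of 4 to 8 samples, 104 tests in all. It asks whether the extreme sample's gap to its neighbour exceeds a share of the group's range (0.829 for 4 samples, 0.71 for 5, 0.625 for 6 and 0.526 for 8). Of groups with normally distributed values, chance passes about 1 in 20, and 28 passed here. The values were CPM without a log scale, so this count cannot be set against chance. The measures of 1 library share its RNA and are not independent.

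Male WT 5 lay far above the other 3 male WT animals, with a gap of 0.908 of the range for Ccnb1, 0.881 for Ccne1, 0.9 for Cdk1, 0.942 for Mcm2, 0.909 for Mcm5, 0.931 for Mki67, 0.916 for Rrm2 and 0.922 for Top2a. The gap was 0.93 for the summed members, 0.925 for the summed mitotic members and 0.916 for the summed replication members. Female WT 2 lay above the other female WT animals, with 0.94 for Ccnb1, 0.918 for Cdk1, 0.85 for Mcm2, 0.832 for Mcm5, 0.92 for Mki67, 0.942 for Rrm2 and 0.928 for Top2a. Its sums gave 0.91 for all members, 0.921 for mitotic and 0.873 for replication members. Female KO 4 was high in Mcm5 (0.886).

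In the LPS experiment Pcna was high in WT LPS 7 (0.967), KO LPS 5 (0.832) and KO ns 6 (0.813), the libraries with 6.74%, 5.62% and 8.55% mitochondrial counts. Ccnb1 was high in WT LPS 7 (0.649), Cdk1 in KO LPS 5 (0.637) and Mcm5 in KO ns 1 (0.527).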

How the results depend on the processing

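In KO after LPS, 15 members were called, against 26.2% of all genes. Library set 2 alone gave 2, and leaving out 1 library at a time gave 12 to 16. Leaving out the ns libraries over 100 CPM of Mpo gave 26, where 10.2% of all genes were called higher. For most settings of this section the share of all genes called is not given. A changed count of members therefore cannot be told apart from a change over all genes. Ccne1 and Mcm6 kept their call in all 41 alternatives. Mcm2, Mcm4, Mcm5, Mcm7, E2f1, Gins2 and Cdt1 lost it with library set 2 alone, which has fewer samples and in which their log2 changes were larger (2.19, 2.02, 2.26, 1.25, 2.41, 1.70 and 1.81), Uhrf1 with either set alone, and Cdc6 with either set alone and without libraries over 5% mitochondrial counts. Cenpf lost it with WT libraries as labelled and with set 2 alone.

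In WT after LPS, 5 were called, against 28.1% of all genes. The count was 12 with DESeq2 (32.5% of all genes) and 0 with the number 2 libraries as labelled (0% of all genes). It was 3 without a filter, 3 with library set 1 alone and 0 with set 2 alone. It was 8 with number 2 left out of all groups, 8 with WT LPS 8 and 9 kept apart, 9 without WT ns 4, 10 without libraries over 5% mitochondrial counts and 11 without the ns libraries over 100 CPM of Mpo. Leaving out 1 library at a time gave 2 (without WT LPS 2) to 9 (without WT ns 2 or without KO ns 6). For all other comparisons every leave-one-out count was 0. The cause of these changes was not tested.

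Directions reversed for 7 differences of single members. In females, leaving out 1 animal at a time gave -1.002 (without female WT 1) to 0.27 (without female WT 2) for Aurka and -1.502 to 0.76 (the same animals) for E2f8, and without animals over 100 CPM of Mpo they were 0.088 and 0.36. Ccnb1 averaged over the sexes was 0.0682 without those animals. Female against male WT ranged, with 1 animal left out, from -1.28 to 0.0618 for E2f1, -0.858 to 0.16 for Rrm1 and -0.582 to 0.15 for Tk1, each time highest without male WT 5. Mcm6 between the genotypes after LPS was -0.0069 with library set 1 alone and -0.0631 without libraries over 5% mitochondrial counts.

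The median over all members also changed sign, as given beside it, in females (0.47 without female WT 2), averaged over the sexes (0.05 without animals over 100 CPM of Mpo), between female and male WT (0.62) and in the sex interaction (-0.35), both without male WT 5, and in WT after LPS (0.61 without the ns libraries over 100 CPM of Mpo). Between the genotypes after LPS it lay near 0, from -0.12 (without KO LPS 6) to 0.20 (without WT LPS 5).

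With a replicate block on the numbers, 16 members were called in KO after LPS, 3 in WT after LPS and 0 in all other comparisons. Under the block Cdc45 in KO and Mcm2 and Nusap1 in WT had adjusted p-values of 0.0633, 0.113 and 0.107. The labels do not say that numbers pair samples, so the main fit assumed no pairing. Same-number samples correlated at 0.134 on average in the sex experiment (-0.508 to 0.619, 24 pairs, 15 over 0.1, other pairs -0.0254). In the LPS experiment they correlated at 0.266 (-0.322 to 0.904, 35 pairs, 22 over 0.1, other pairs 0.0358). Of the samples, 3 of 18 and 11 of 28 correlated best with their own number. Same-number pairs were thus more alike on average than other pairs, and the main fit has no term for the number. Fits on only the groups compared could not be made for the averaged and interaction comparisons. Members under about 1 CPM, such as Ccne1 in KO ns, rest on few counts in the shallow libraries.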

Other observations

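Tk1 was low in the libraries with raised mitochondrial shares, at 0.9991 CPM in KO ns 6 (8.55% of counts), 3.343 CPM in WT LPS 6 (7.46%, a library whose markers go against its label), 4.591 CPM in WT LPS 7 (6.74%) and 8.311 CPM in KO LPS 5 (5.62%), against group medians of 16.24 CPM in KO ns, 25 CPM in WT LPS and 22.62 CPM in KO LPS. Pcna in the same 4 libraries was 199.8, 160.2, 392.9 and 280.8 CPM. Foxm1 in them was 0.4996, 1.163, 1.755 and 0.3685 CPM.

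Erythroid markers also varied among these libraries, with a sum of 20710 CPM in WT LPS 6. B lineage markers summed to 303.5 to 479.1 CPM in the sex experiment, with male WT 5 and female WT 2 at 413.1 and 303.5 CPM.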
